A study of Mus musculus with 32 samples.

Results

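The joins described here are the out-of-frame VDJ joins of the immunoglobulin heavy chain in mouse pro-B cells. They are the clonotypes of the clone lists of single samples whose CDR3 nucleotide sequence has a length that is not a multiple of 3. The CDR3 is the stretch from the conserved cysteine codon of the V segment (TGT) to the conserved tryptophan codon of the J segment (TGG), and a clonotype is a distinct CDR3 sequence with its number of reads. Of 2111 clonotypes in 33 lists, 788 (37.3%) were out of frame, and 362 of the 788 had 2 or more reads. The other 1323 clonotypes were in frame by length, and 136 of them carried a stop codon.

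The study set control mice (WT) beside Setd2 knockout mice (KO), all 8 weeks old and untreated. The cells were bone marrow pro-B cells sorted as B220+, CD43+, IgM- and CD25-, and their genomic DNA was amplified between a primer of the VH family Vh558, Vh7183 or Vhq52 and a JH4 primer. A product of 500 bp was cut from the gel, so joins to JH genes other than JH4 were not sampled alike. There were 11 mice, 5 WT (1418, 1432, 1484, 1485 and 1536) and 6 KO (1421, 1423, 1464, 1487, 1500 and 1534). Vh558 was read in 4 WT and 5 KO mice, Vh7183 in 5 WT and 5 KO mice, and Vhq52 in 5 WT and 4 KO mice. How the knockout was made is not given in the sources used here, and these amplicons measure neither Setd2 nor the markers of the sort, so genotype and cell type rest on the labels. Lists held 212 to 6801 clone reads in Vh558, 227 to 1352 in Vh7183 and 1790 to 4391 in Vhq52. Repeat lists of a mouse in Vh558 were averaged, and the mouse is the replicate throughout.

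In developing B cells, D is first joined to JH and then V to DJ. At each junction a few germline bases are trimmed and non-templated bases are added, so that the reading frame of a join is largely a matter of where the ends meet. A join out of frame cannot encode a heavy chain and stays in the genome of a cell that survives through its other allele, and such joins are used as a record of the repertoire before selection on the protein. SETD2, the product of the gene named for the knockout, is a methyltransferase that trimethylates a lysine of histone H3 in transcribed chromatin.

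The sequences shown first are those on which the frame call turned. In some lists, mainly of Vhq52, the deposited CDR3 began some bases before the cysteine codon, and the same join could be listed both ways. In 2 such pairs, the bases before the cysteine codon are in capitals and the remainder of the sequence is in lower case.
WT 1432, Vhq52, early start, 287 reads, 53 nt: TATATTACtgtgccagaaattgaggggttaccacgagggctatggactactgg
WT 1432, Vhq52, from the cysteine codon, 863 reads, 45 nt: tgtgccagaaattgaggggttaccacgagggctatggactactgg
KO 1487, Vhq52, early start, 140 reads, 54 nt: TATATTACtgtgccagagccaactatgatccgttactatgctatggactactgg
KO 1487, Vhq52, from the cysteine codon, 416 reads, 46 nt: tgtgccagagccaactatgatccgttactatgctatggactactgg
The first pair is out of frame in its early form and in frame from the cysteine codon. The second pair is in frame in its early form and leaves a remainder of 1 from the cysteine codon.

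Next come the out-of-frame joins with the most reads in each amplicon and genotype, chosen to show what such a join looks like. Capitals mark the bases that match the JH4 end of the series without a break from the 3′ side.
WT 1536, Vh558, 112 of 2176 reads: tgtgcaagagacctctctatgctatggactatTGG
KO 1534, Vh558, 2493 of 5857 reads: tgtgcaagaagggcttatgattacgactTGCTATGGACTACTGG
WT 1485, Vh7183, 204 of 1290 reads: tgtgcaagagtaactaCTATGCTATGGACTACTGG
KO 1421, Vh7183, 150 of 757 reads: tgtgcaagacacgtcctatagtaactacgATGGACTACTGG
WT 1485, Vhq52, 472 of 1790 reads: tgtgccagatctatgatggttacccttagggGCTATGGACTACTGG
KO 1464, Vhq52, 491 of 2897 reads: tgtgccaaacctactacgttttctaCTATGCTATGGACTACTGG
All 6 began with the cysteine codon, ended with the tryptophan codon and were called JH4. The Vhq52 join of WT 1485 left a remainder of 1, and the other 5 left a remainder of 2. Their share of the clone reads of their list ran from 5.15% in WT 1536 (95% Wilson interval 4.30 to 6.16) to 42.6% in KO 1534 (41.3 to 43.8). The intervals cover counting error only, since reads of a PCR are not independent molecules.

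The 2 out-of-frame sequences found in 3 mice, both of Vhq52, are shown because both carry an early start. The JH4 match is again in capitals, and the 8 bases before the cysteine codon stay in lower case.
Vhq52, 44 nt: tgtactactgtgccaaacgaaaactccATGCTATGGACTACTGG
Vhq52, 56 nt: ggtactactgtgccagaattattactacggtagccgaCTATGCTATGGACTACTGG
The first had 113 reads in WT 1418, 59 in KO 1464 and 1 in KO 1487. The second had 21 reads in WT 1418, 15 in KO 1487 and 2 in KO 1500. Counted from the cysteine codon, both are in frame. The shortest and the longest out-of-frame joins with at least 2 reads give the span of the class. The first came from KO 1421 in Vh558 with 12 reads and 17 nt, and no JH gene could be called from it. The second came from KO 1464 in Vhq52 with 105 reads and 67 nt.
shortest: tgtgcaagaggcactgg
longest: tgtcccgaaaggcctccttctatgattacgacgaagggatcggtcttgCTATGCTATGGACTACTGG

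A start was called early where a sequence did not begin with TGTG but held TGTG after AC or AT within its first 12 bases. An early start was found in 256 of the 2111 clonotypes, by 8 bases in 239 of them, by 5 in 11 and by 4 in 6. None of these offsets is a multiple of 3, so each changes the frame call. In Vhq52, 192 of 400 out-of-frame joins (48.0%) and 41 of 288 in-frame joins (14.2%) began early. In Vh7183 it was 13 of 219 out-of-frame joins (5.94%) and in Vh558 10 of 169 (5.92%), and no in-frame join in either. For 182 of the 256, the same join was also listed from the cysteine codon in the same list, and in 166 of these the latter form had more reads. When the start was moved to the cysteine codon and equal sequences of a list were merged, 167 early out-of-frame joins became in frame and 41 in-frame joins of Vhq52 became out of frame. The lists then held 1928 clonotypes, of which 597 (30.96%) were out of frame. Both counts are followed below: "as deposited" is the length in the lists, and "with the start moved" is this second count. Starts outside the rule were kept as listed, so the second count is not from the cysteine codon throughout. In it, 547 of 597 out-of-frame joins (91.6%) and 1235 of 1331 in-frame joins (92.8%) began with TGT.

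**Figure D1:**
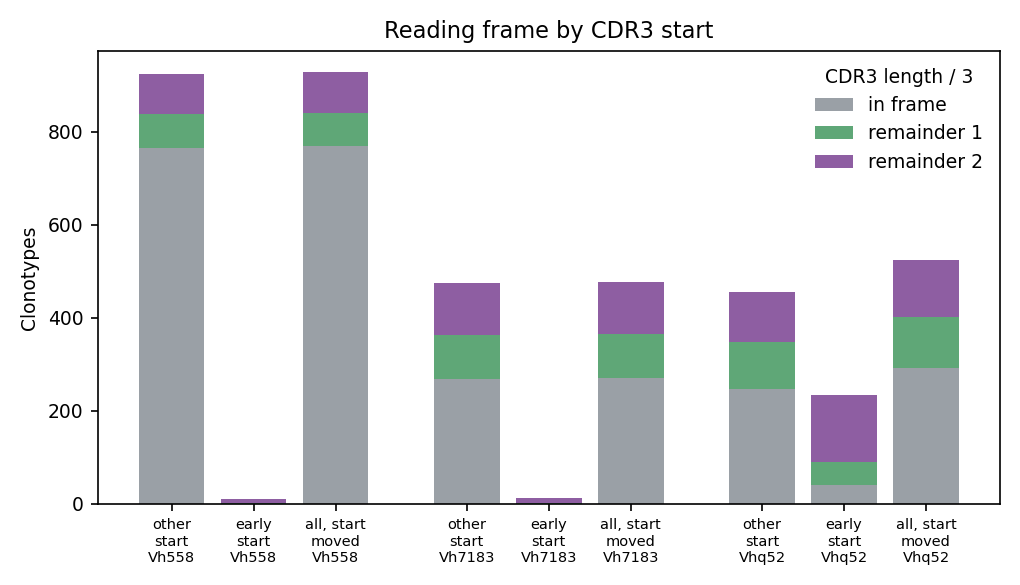
Clonotypes by reading frame for joins listed without an early start, for joins listed with one, and for all joins after the start was moved, in each amplicon. Bar height is the number of clonotypes, and colours give the remainder of the CDR3 length divided by 3. In Vhq52 the early starts hold 143 joins of remainder 2, 49 of remainder 1 and 41 in frame.

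The out-of-frame share of clonotypes differed widely between mice and amplicons. Over all lists it was 18.1% in Vh558 (169 of 935), 44.9% in Vh7183 (219 of 488) and 58.1% in Vhq52 (400 of 688). Among clonotypes of 2 or more reads it was 14.1%, 41.8% and 56.3%. With the start moved, all read counts again, the Vhq52 share was 44.3% (232 of 524), against 43.3% in Vh7183 and 17.1% in Vh558.

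Per mouse, the Vh558 share was 12.9% in WT 1418, 20.5% in 1432, 40.9% in 1485 and 13.0% in 1536. In KO mice it was 41.6% in 1421, 18.9% in 1423, 20% in 1464, 66.7% in 1500 and 27.8% in 1534. The genotypes overlapped, and the highest values of each came from lists of few clonotypes: 12 in KO 1500 and 22 in WT 1485. In Vh7183 the share was 57.1%, 17.0%, 32.1%, 53.2% and 58.6% in WT 1418, 1432, 1484, 1485 and 1536. It was 47.1%, 42.4%, 50%, 44.2% and 46.4% in KO 1421, 1423, 1464, 1487 and 1500. All 5 KO mice fell inside the WT range. In Vhq52 the WT values were 45.5%, 62.5%, 60.5%, 46.2% and 61.9% in the same order of mice, and the KO values were 56.2% in 1421, 68.1% in 1464, 50.7% in 1487 and 61.8% in 1500. Here too the groups overlapped.

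**Figure D2:**
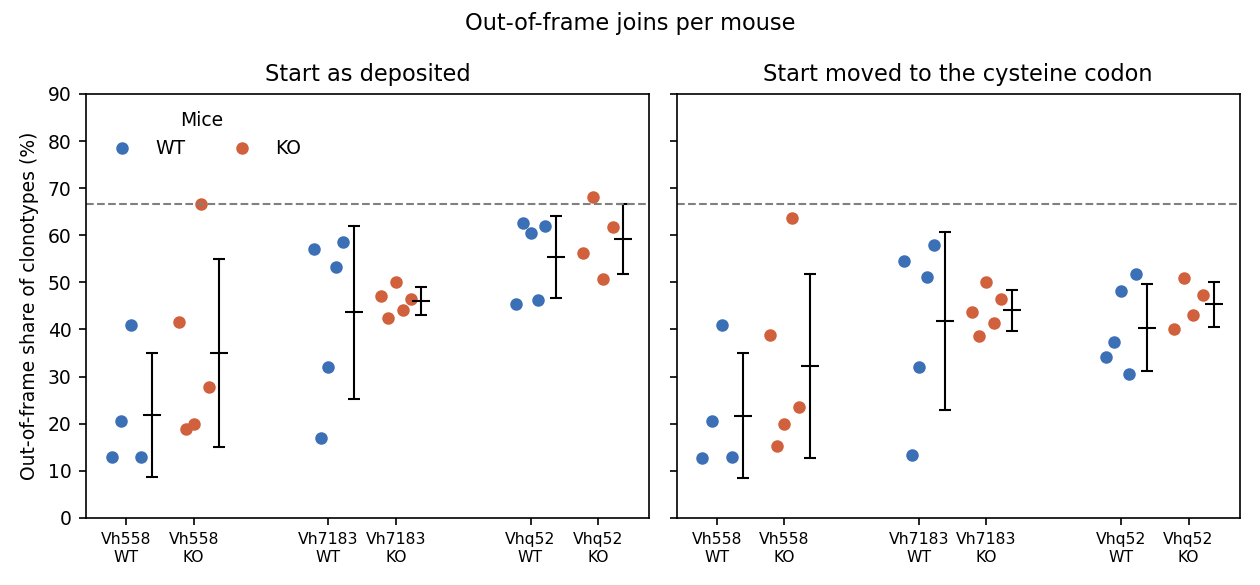
Out-of-frame share of clonotypes in percent, 1 point per mouse, by amplicon and genotype, as deposited (left) and with the start moved (right). Bars give mean and SD over mice, and the dashed line at 66.7% is equal use of the 3 frames. In Vhq52 the WT and KO means are 55.3% and 59.2% on the left and 40.4% and 45.3% on the right.

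Equal frame use is a reference value here, not an expectation for sorted cells. Set against its 66.7%, the out-of-frame share was lower by 24.1 percentage points on average over a mouse's amplicons (SD 9.02, n = 11 mice), and lower in 11 of 11 mice. The exact two-sided sign-flip permutation test gave p = 0.000977, the smallest it can give, and an adjusted p of 0.00781 over 8 tests of frame use. As deposited, the Vhq52 mice differed from 66.7% by -9.61 points (SD 7.94, n = 9, exact permutation, adjusted p = 0.0125). With in-frame joins that held a stop codon left out of the share, it was -4.89 points and missed the threshold (exact permutation, adjusted p = 0.146). Leaving these joins out raises the share by construction, while 66.7% was kept as the reference. That value therefore cannot tell whether the distance from equal frame use became smaller. After the start was moved, the Vhq52 difference was -24.1 points (SD 7.57, adjusted p = 0.00781, exact permutation), beside -23.7 in Vh7183 and -39.1 in Vh558.

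The out-of-frame joins were split unevenly between the remainders 1 and 2 as deposited. Remainder 2 held 95 of 169 joins in Vh558, 122 of 219 in Vh7183 and 251 of 400 in Vhq52. In Vhq52 the share of remainder 1 lay below 50% in 9 of 9 mice, by 12.8 points on average (SD 6.58, exact sign-flip permutation, adjusted p = 0.0104). Among joins of 10 or more reads the difference was -5.28 points and missed the threshold (exact permutation, adjusted p = 0.5). Early starts made up 143 of the 251 Vhq52 joins of remainder 2. After that move, the Vhq52 joins were 109 of remainder 1 and 123 of remainder 2, and the mean difference from 50% was -1.07 points (SD 16.7, adjusted p = 0.969, exact permutation), with 5 of 9 mice above 50%. In Vh558 and Vh7183, the share of remainder 1 did not pass the threshold under either start. Their mean differences as deposited were -3.92 points (SD 17.6, n = 8 mice) and -7.06 points (SD 14.0, n = 10 mice), with adjusted p of 0.594 and 0.192 in the exact permutation test. Without KO 1500, where 7 of 8 joins had remainder 1, the Vh558 difference was -9.84 points (exact permutation, adjusted p = 0.0357).

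The joins of each remainder are described here without a test. Under the moved start, mean CDR3 length in Vhq52 was 42.1 nt (SD 9.92) for remainder 1 and 43.8 nt (SD 10.4) for remainder 2. Single reads made up 56.0% and 61.0% of them. In Vh7183 the lengths were 42.0 nt (SD 7.59) and 43.2 nt (SD 12.9), and in Vh558 they were 45.5 nt (SD 9.72) and 44.9 nt (SD 12.9). These spreads are over joins, not over mice.

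Between amplicons, the mean share over mice was 29.1% in Vh558 (SD 17.6, n = 9), 44.8% in Vh7183 (SD 12.4, n = 10) and 57.1% in Vhq52 (SD 7.94, n = 9). Vhq52 exceeded Vh558 by 27.9 points (95% interval 14.1 to 41.1) with an adjusted p of 0.0112 over 12 exact permutation tests, and Vh7183 by 12.2 points (2.32 to 22.5, adjusted p = 0.0483). Vh7183 exceeded Vh558 by 15.7 points, which missed the threshold of 0.05 (exact permutation, adjusted p = 0.0788). These tests and intervals do not pair the mice, although many of the same animals stand on both sides. Both amplicons were read in 7 mice for Vh558 and Vhq52, 9 for Vh7183 and Vhq52, and 8 for Vh558 and Vh7183. No pair passed with the start moved: Vhq52 was 15.0 points above Vh558 (1.75 to 27.7, exact permutation, adjusted p = 0.119) and -0.338 points from Vh7183 (-10.3 to 10.1, adjusted p = 0.986). When single reads were also left out, Vhq52 was 22.3 points above Vh558 (exact permutation, adjusted p = 0.00296). Compared within the mice that had both amplicons, as deposited, Vhq52 minus Vh558 was 26.7 points over 7 mice (exact sign-flip permutation, adjusted p = 0.125) and Vhq52 minus Vh7183 was 11.98 points over 9 mice (adjusted p = 0.169). The labels give a sequencing batch for each sample, and Vh7183 and Vhq52 each had a batch of their own, so amplicon and batch cannot be told apart.

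No measure of the out-of-frame joins passed the threshold between the genotypes: of 24 exact permutation tests, 2 had an unadjusted p under 0.05 and 0 an adjusted one. The share was 21.8% ± 13.2 in WT (SD, n = 4) and 35.0% ± 19.9 in KO (n = 5) in Vh558, a difference of 13.2 points (-16.2 to 45.8). It was 43.6% ± 18.3 and 46.0% ± 2.89 in Vh7183 (difference 2.42, -13.1 to 23.99), and 55.3% ± 8.71 and 59.2% ± 7.45 in Vhq52 (difference 3.93, -10.6 to 19.2). Centred per amplicon and averaged per mouse, KO exceeded WT by 4.99 points (-3.54 to 14.1, n = 5 WT and 6 KO, exact permutation p = 0.251, adjusted p = 0.869). Within the 3 sequencing batches that the labels give for Vh558 the differences were 14.1, 17.8 and 16.0 points, over at most 3 mice of a genotype. WT 1418 was the only WT mouse of the second batch. The third batch held repeat lists of WT 1418 and 1536 and KO 1421 and 1423, so the batches are not independent. The second list of KO 1534 bears the run code of the second batch in its name, and placed there it gave 12.3 and 18.9 points in the first 2 batches. Leaving out each mouse in turn moved the Vh558 difference from 5.23 points without KO 1500 to 19.5 without WT 1485, and the Vhq52 difference from 0.968 without KO 1464 to 6.76 without KO 1487. The intervals leave room for differences of either sign.

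The share of clone reads in out-of-frame joins had a wide spread between mice. In Vh558 they made up 4.8996%, 0.223%, 0.590% and 13.5% of clone reads in WT 1418, 1432, 1485 and 1536. In KO 1421, 1423, 1464, 1500 and 1534 they made up 8.11%, 7.17%, 12.4%, 35.7% and 44.3%. The means were 4.797% (SD 6.16) and 21.5% (SD 17.2), the ranges overlapped, and the difference of 16.7 points (-5.37 to 43.7) had an exact permutation p of 0.119 (adjusted 0.714). The value of KO 1534 rests on 1 join, the 2493-read sequence shown above, which also took 163 of 356 reads (45.8%) in the other list of that mouse. In KO 1464 and KO 1500, too, 1 join held most out-of-frame reads (827 of 843 and 420 of 429). The largest such join held 475 of 529 and 10 of 30 in the lists of KO 1421, whose read shares were 15.6% and 0.631%. For KO 1423 it held 4 of 16 and 813 of 825, with read shares of 0.327% and 14.0%. Among WT lists it held from 12.5% (WT 1432) to 64.7% (WT 1536) of out-of-frame reads. In Vh7183 the mean shares of clone reads were 32.5% (SD 14.7) in WT and 30.1% (SD 15.5) in KO, and in Vhq52 39.5% (SD 19.7) and 40.01% (SD 5.79).

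Out-of-frame joins ran from 17 to 125 nt and in-frame joins from 12 to 159 nt. As deposited, the Vh558 joins had a median of 46 nt out of frame and 45 nt in frame. The medians were 43 and 42 nt in Vh7183, and 47 and 45 nt in Vhq52. Over a mouse's amplicons, out-of-frame joins were on average 2.30 nt longer (SD 2.001, n = 10 mice, 9 longer, exact sign-flip permutation, adjusted p = 0.0625 over 24 tests). Moving the start gave a difference of 0.454 nt (SD 2.37, adjusted p = 0.897, exact permutation). In Vhq52 it went from 3.12 nt as deposited to -1.0 nt. The deposited Vhq52 lists held 35, 30 and 38 joins of 50, 53 and 56 nt, lengths that lie 8 bases above the commonest in-frame lengths of 42, 45 and 48 nt. When the start was moved, 12, 7 and 13 joins of those lengths were left.

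**Figure D3:**
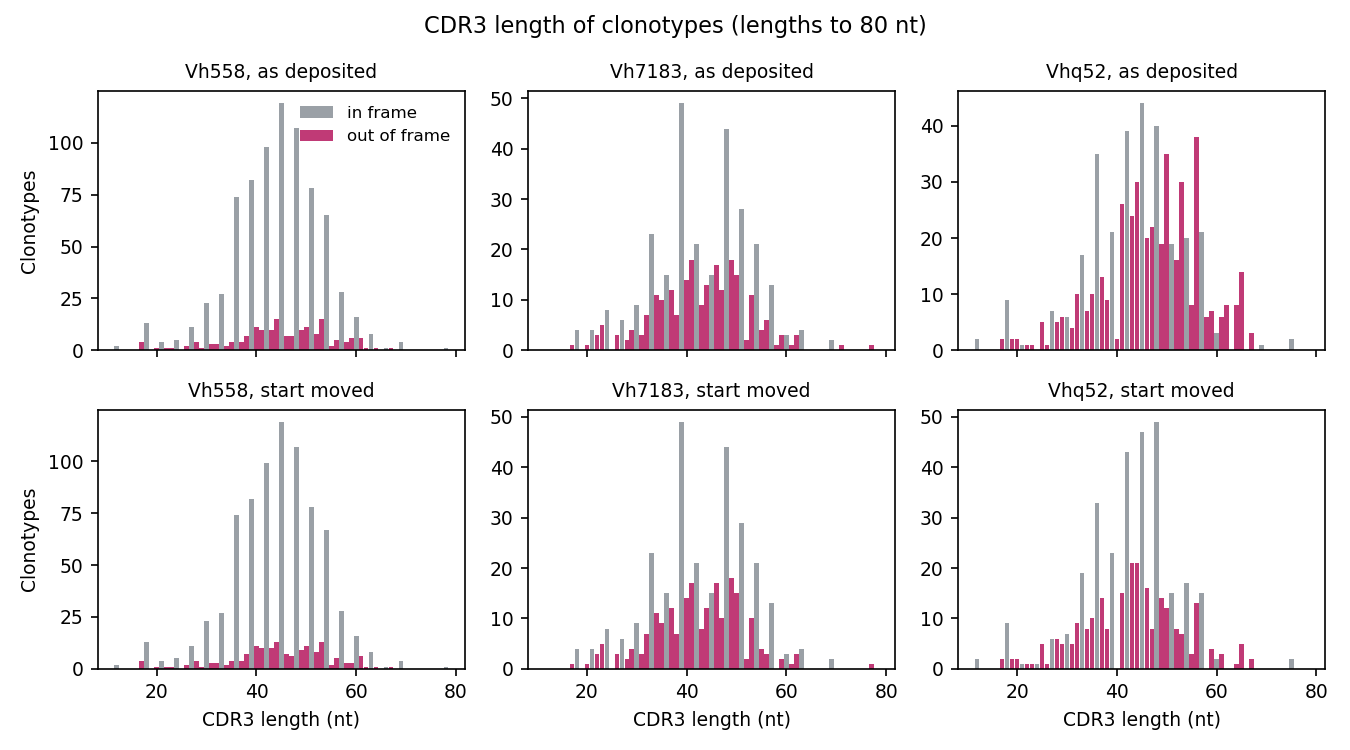
CDR3 length in nucleotides (x axis) against number of clonotypes (y axis), in frame and out of frame, as deposited (top) and with the start moved (bottom), for each amplicon. In-frame bars stand every 3 nt by definition. The tall out-of-frame bars of Vhq52 at 50, 53 and 56 nt in the top panel are lower in the bottom panel.

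The spread of out-of-frame lengths gave the lowest unadjusted p-values between genotypes. In Vh7183 the SD of length within a list was 9.32, 10.7, 12.1, 8.52 and 16.2 nt in WT 1418, 1432, 1484, 1485 and 1536. It was 7.79, 8.36, 7.75, 8.46 and 7.56 nt in KO 1421, 1423, 1464, 1487 and 1500. The groups did not overlap, and the means differed by -3.37 nt (-6.47 to -0.793, exact permutation p = 0.00794, adjusted p = 0.19). Under the moved start their difference was -2.09 nt (p = 0.413, exact permutation). Of the 5 out-of-frame joins longer than 70 nt, 3 were in WT Vh7183 lists and none in KO Vh7183 lists, and all 5 were single reads. In Vhq52 the order was opposite, with means of 8.64 nt in WT and 11.5 nt in KO (difference 2.86 nt, exact permutation p = 0.0397, adjusted p = 0.476), and 2.33 nt with the start moved (p = 0.143). In-frame Vhq52 joins as deposited had means of 11.1 nt in WT and 10.4 nt in KO. In-frame Vh7183 joins as deposited had means of 9.86 nt in WT and 6.83 nt in KO, so there the lower KO mean was not particular to out-of-frame joins. The in-frame spreads were not tested between genotypes.

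JH use was read from the last 12 bases of the CDR3, because the J names in the lists belong to the human locus. The JH ends came from the series table with mouse names. On the clonotypes of that table the call and the name were the same in 99.4% of the 857 resolved, which is not an independent check, and none of its clonotypes was out of frame. Among out-of-frame joins with a called JH gene as deposited, JH4 held 136 of 147 in Vh558, 103 of 189 in Vh7183 and 201 of 341 in Vhq52. JH3, the next gene upstream, held 5, 41 and 66, JH2 held 6, 37 and 61, and JH1 held 0, 8 and 13. JH4 led in each amplicon, and JH1, the most distant of the 4 from the JH4 primer, was the least used. Per mouse, the JH4 share of out-of-frame joins averaged 89.4% in Vh558 (SD 20.4, n = 8), 57.7% in Vh7183 (SD 13.6, n = 10) and 59.0% in Vhq52 (SD 10.5, n = 9).

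The Vh558 joins had a higher JH4 share than both other amplicons as deposited: Vh7183 minus Vh558 was -31.8 points and Vhq52 minus Vh558 was -30.5 points (adjusted p = 0.0112 each, exact permutation). With the start moved the differences were -34.2 points (adjusted p = 0.0269) and -25.8 points (adjusted p = 0.119, exact permutation). These tests again did not pair the mice read in both amplicons. Within those mice, as deposited, the differences were -30.4 and -29.0 points (exact sign-flip permutation, adjusted p = 0.117 and 0.169). The calls also rested on the read and join minimums. Among joins of 2 or more reads, Vh7183 minus Vh558 was -56.5 points and missed the threshold (exact permutation, adjusted p = 0.0556). Among those of 10 or more reads the differences were 0.0 and -18.4 points (adjusted p = 1.0 and 0.938, exact permutation). With a minimum of 10 joins per list they were -26.1 and -22.9 points (adjusted p = 0.0629 and 0.0673, exact permutation). Batch and amplicon again cannot be told apart here.

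In-frame joins of the same lists used JH4 in 658 of 711 cases in Vh558, 166 of 260 in Vh7183 and 162 of 258 in Vhq52. The paired difference in JH4 share, out of frame minus in frame, was -0.309 points over a mouse's amplicons (SD 13.4, n = 10, 4 of 10 higher, exact permutation, adjusted p = 0.949). Without single reads it was -4.28 points, and with the start moved as well it was -11.3 points (exact permutation p = 0.00391, adjusted p = 0.0938). In Vh7183 as deposited, the JH4 share was lower out of frame in 5 of 5 WT mice and in 2 of 5 KO mice. With the start moved, the difference in KO 1487 turned from 2.17 to -7.83 points, and the other Vh7183 mice kept their sign. A difference between genotypes in this was not tested. Seen by gene, with the start moved, the out-of-frame share in Vh7183 was 35.3% of JH4 joins, 44.9% of JH3 joins and 49.3% of JH2 joins. In Vhq52 it was 41.0%, 37.9% and 47.1%. Joins without a called JH gene were out of frame more often, 30 of 39 in Vh7183 and 43 of 72 in Vhq52, and the call failed in 14.1% of out-of-frame and 7.11% of in-frame joins as deposited.

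**Figure D4:**
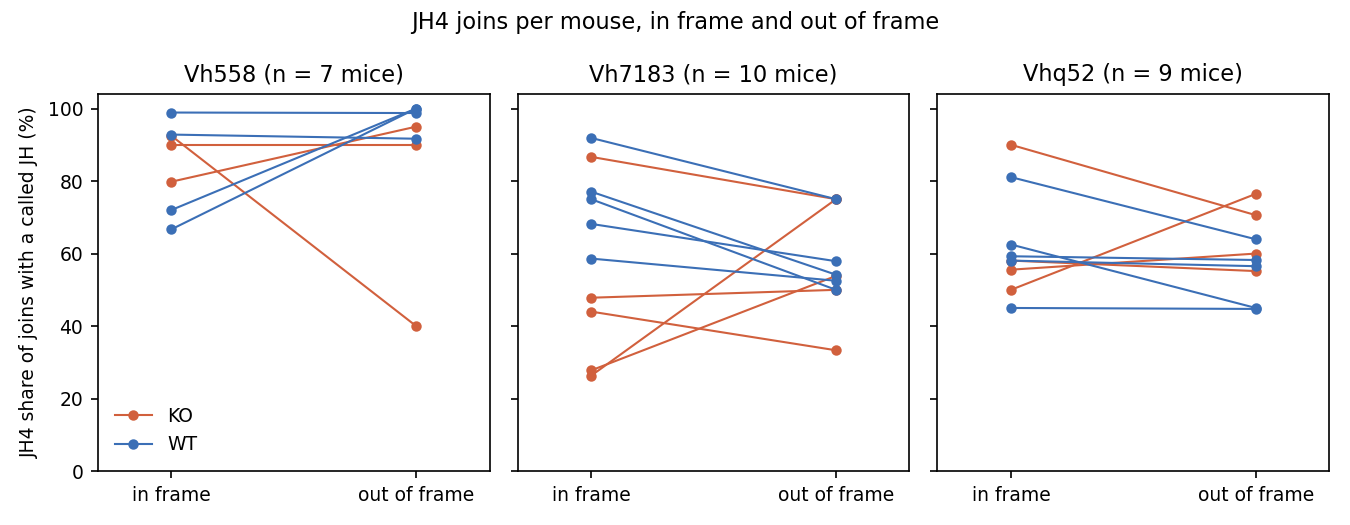
JH4 share, in percent, of joins with a called JH gene in the same mouse, in frame (left of each panel) and out of frame (right), as deposited. Each line is 1 mouse, coloured by genotype. Vh558 mice lie mostly above 70%, with KO 1421 at 40% out of frame. The out-of-frame point of KO 1421 is from 1 list and its in-frame point averages 2. Its line therefore differs from the paired difference of -45 points.

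The common beginnings of the joins and their JH4 ends were compared between the classes. With the start moved, 103 of 159 out-of-frame joins of Vh558 (64.8%) and 128 of 206 of Vh7183 (62.1%) began with tgtgcaaga, and 94 of 232 of Vhq52 (40.5%) with tgtgccaga. The same beginnings were found in 60.9%, 50% and 54.8% of the in-frame joins. The unbroken match of JH4 joins to the 19-base JH4 end shortens where more of the J segment was trimmed, and also where a base differs. The WT 1536 join of Vh558 shown above matched 3 bases, with 1 changed base before them. Joins whose end could not be called are left out, so the match is not a measure of trimming alone. As deposited the match was 0.955 bases longer out of frame than in frame over a mouse's amplicons (SD 0.775, n = 10, 8 of 10 longer, exact permutation, adjusted p = 0.0625). Under the moved start it was 0.906 bases (SD 0.629, 9 of 10 longer, exact permutation, adjusted p = 0.0625). Matches shorter than 12 bases were found in 10.3% of out-of-frame and 15.3% of in-frame JH4 joins of Vh558. The shares were 12.1% and 16.8% in Vh7183 and 11.4% and 25.6% in Vhq52. Over the same joins the median match was not longer out of frame: 17 and 17 bases in Vh558, 17 and 18 in Vh7183, and 17 and 18 in Vhq52. Full 19-base matches were 38.9% and 39.9% in Vh558, 41.8% and 39.5% in Vh7183, and 39.5% and 43.9% in Vhq52. The sign of the mean difference per mouse turned, to -0.481 bases, when the start was moved and single reads were left out.

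Out-of-frame clones were smaller than in-frame clones of the same list. Mean log2 reads per clonotype was lower by 0.88 over a mouse's amplicons (SD 0.44, n = 10) and lower in 10 of 10 mice (exact sign-flip permutation p = 0.00195, the smallest it can give, adjusted p = 0.0469). It was lower by 0.81 with the start moved (adjusted p = 0.0469, exact permutation). The gap was -1.87 in Vh558 (7 of 7 mice lower), -0.58 in Vh7183 (8 of 10) and -0.42 in Vhq52 (7 of 9), and none of these passed alone (exact permutation, adjusted p = 0.0625, 0.0879 and 0.125). Among clonotypes of 2 or more reads the gap over all amplicons was -0.75 with an adjusted p of 0.0938 in the exact permutation test.

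In Vh558, mean log2 reads out of frame ran from 0.00 in WT 1432, where all 8 joins were single reads, to 1.52 in KO 1421. In frame it ran from 1.59 in WT 1536 to 4.64 in KO 1421. Single reads made up 426 of the 788 out-of-frame joins (54.1%) and 589 of the 1323 in-frame joins (44.5%). At least 10 reads were held by 152 out-of-frame and 392 in-frame joins, and at least 100 reads by 46 and 118. The largest out-of-frame join had 2493 reads and the largest in-frame join 3232.

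**Figure D5:**
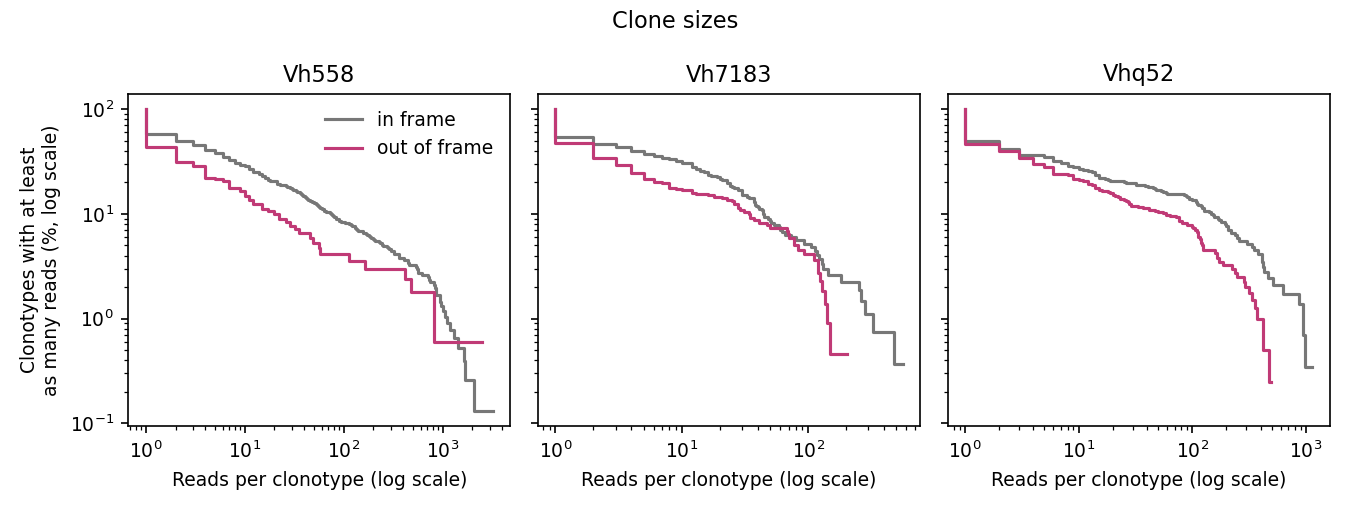
Share of clonotypes, in percent on a log axis, with at least the number of reads on the x axis (log), in frame and out of frame, all lists of an amplicon together, as deposited. The out-of-frame line lies below the in-frame line at 10 reads in each amplicon.

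Large out-of-frame joins were nonetheless present. An out-of-frame join was the largest clonotype of its list in 5 of 33 lists as deposited and in 4 with the start moved. An out-of-frame join took more than 10% of the clone reads in 17 lists as deposited and in 19 with the start moved. As deposited these were 6 of 8 KO lists and 0 of 6 WT lists of Vh558, 4 of 5 KO and 2 of 5 WT lists of Vh7183, and 3 of 4 KO and 2 of 5 WT lists of Vhq52. In Vh558 the KO lists held 9 to 65 clonotypes and the WT lists 22 to 282. The share that 1 join takes also depends on how many others its list holds. The same counts for in-frame joins are not given here. In Vh558, 5 mice have 2 lists each, so these counts are of lists, not of mice, and were not tested.

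Few out-of-frame joins lay 1 edit from a much larger clone. A clonotype 1 base change, insertion or deletion away from a clonotype of at least 10 times its reads in the same list was found for 64 out-of-frame joins (8.12%) and 155 in-frame joins (11.7%). For 5 of the 788 the larger clone was in frame and 1 base longer or shorter, and for 58 it was itself out of frame and differed by 1 base change.

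Few out-of-frame joins were met again. In the mice with repeat Vh558 lists, 4 of 131 out-of-frame entries (3.05%) were in the other list of that mouse, against 68 of 666 in-frame entries (10.2%). Among entries of at least 10 reads it was 3 of 26 (11.5%) and 43 of 196 (21.9%). The out-of-frame counts rest on few joins: without KO 1534, whose lists belong to 1 sample, they were 2 of 126 (1.59%) and 1 of 24 (4.17%). Without KO 1421 they were 2 of 111 (1.80%) and 2 of 22 (9.09%), and without WT 1536 they were 4 of 82 (4.88%) and 3 of 14 (21.4%). Between mice, 0 of 167 out-of-frame sequences of Vh558, 6 of 213 of Vh7183 and 17 of 381 of Vhq52 were held by more than 1 mouse. In frame it was 5 of 723, 15 of 254 and 18 of 260. Of the 17 shared Vhq52 sequences, 13 were in both genotypes, and 11 had a single read in the mouse that held them at the lower count. As entries of the lists, 36 of 400 out-of-frame joins of Vhq52 (9.0%) were shared as deposited and 14 of 232 (6.03%) with the start moved. These shares were not tested, since lists differ in depth.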

How the data were processed

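The read counts per clonotype are those the authors deposited in 33 clone lists of 32 samples, unnormalised, from 1 read up. The series title names MiXCR. Its version, its settings and any genome build: not given in the sources used here. V, D and J names in the lists are those of the human locus and were not used, so no genome position is given.

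Frames were taken from CDR3 length. JH genes were called from the last 12 bases, allowing 2 mismatches, against the commonest ends of mouse JH joins in the series table. Means needed at least 5 joins of a class in a list. Repeat lists were averaged per mouse. The labels' mouse numbers name the same animal across amplicons, so the mouse also served as a block between amplicons. Tests were two-sided exact permutation tests over mice, adjusted by Benjamini-Hochberg within 4 families (24, 24, 8 and 12 tests), and were tested on simulated data first. Named joins were, by rule, the largest out-of-frame join per amplicon and genotype, those held by the most mice, and the shortest and longest of 2 or more reads; those in 2 mice are given as counts. The members and measures were chosen with earlier results of these data known, and moving the start to the cysteine codon was chosen after seeing the data. Nothing in the labels says how cells were pooled, and p-values measure the spread between mice. The library text also names poly-A selection beside genomic DNA. The work was done in Python 3.11.15 with pandas 2.3.3 for tables, scipy 1.17.1 and numpy 2.4.6 for tests, and matplotlib 3.10.9 for plots. Alternatives are in the closing section.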

Additional observations from a re-analysis of the deposited data

Results flagged for a closer look

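Of 36 groups of mice examined, 3 held a mouse whose gap to its neighbour was large for the range of its group, and chance alone would give about 1 in 20. All 3 were in Vh558, where out-of-frame joins per mouse were few. The share of remainder 1 among out-of-frame joins was 87.5% in KO mouse 1500, which had 8 such joins, against 33.5% to 38.5% in the other 3 KO mice with a value. The JH4 share of out-of-frame joins was 40% in KO mouse 1421, against 90% to 100% in the other KO mice. That 40% rests on 1 of the 2 lists of KO 1421, since the other had too few called out-of-frame joins. It was 91.7% in WT mouse 1418, against 98.8% to 100% in the other WT mice.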

How the results depend on the processing

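Of 280 recomputed values that did not leave out a mouse, 234 kept their direction and their side of the threshold of 0.05. No genotype measure passed after adjustment under any setting tried, and the out-of-frame share over all amplicons stayed below equal frame use under each of them. Without single reads, the gap in mean log2 reads over all amplicons was -0.75, no longer past the threshold, Vh7183 minus Vh558 in share was 20.96 points and now past it, and Vhq52 minus Vh7183 was 13.8 points and no longer past it. The genotype difference in the Vh7183 share turned to -0.33 points and the excess of remainder 1 over 50% in Vh7183 to 1.77. With at least 10 reads these were -0.41, 21.9 and 15.9 in the same sense, remainder 1 over all amplicons was -6.36 and in Vhq52 -5.28, both losing their call, and the sign turned for the JH4 share (1.18 points), for the JH4 match (-0.22 bases), for log2 reads in Vh7183 (0.22) and for remainder 1 in Vh558 (1.82). The paired JH4 difference also turned with repeat lists pooled (0.0779) and without sequences held by another mouse (1.84). Without joins 1 edit from a larger clone, Vh7183 minus Vh558 was 16.4 and passed. With a minimum of 10 joins per list, log2 reads (-0.73), Vhq52 minus Vh7183 in share (12.2) and the JH4 share of Vh558 against Vh7183 (-26.1) and Vhq52 (-22.9) missed the threshold. With in-frame joins holding a stop codon left out, out-of-frame joins were 2.85 nt longer, past the threshold, and the Vhq52 share no longer differed from equal frame use past it (-4.89 points).

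With the mouse as a block, which pairs the amplicons of an animal, Vhq52 minus Vh558 was 26.7 points and Vhq52 minus Vh7183 was 11.98, and both lost their call; fewer mice enter there. With the start moved as well, the blocked values were 11.8 and -0.81.

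With the start moved and no block, these were 15.0 and -0.34 points, remainder 1 over all amplicons was -2.03 points from 50%, and the Vhq52 length difference was -1.0 nt; the listed starts differ by construction. With the start moved and single reads left out, the differences were -1.01 nt in length, -0.85 in log2 reads, -0.48 bases in JH4 match, -11.3 points in JH4 share, 0.96 points in remainder 1 and 1.58 points for Vhq52 minus Vh7183. Within batch 3 of Vh558, the genotype difference in out-of-frame reads was -4.95 points.

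Leaving out each mouse in turn gave -4.22 to 6.17 points for the Vh7183 genotype difference in share, and in out-of-frame reads -6.98 to 2.59 points in Vh7183 and -4.93 to 6.43 in Vhq52. The length difference ranged from 1.98 to 2.73 nt, passing only without KO 1421, and the JH4 difference from -3.89 to 1.27 points. The gap in log2 reads ranged from -0.94 to -0.78 and lost its call in 9 of 11 cases (all but those without KO 1421 or 1534), where fewer mice raise the smallest p the test can give. Vh7183 minus Vh558 ranged from 12.1 to 20.2 points, passing only without KO 1500. Vhq52 minus Vh7183 ranged from 8.48 to 15.1 points and lost its call without KO 1421, 1423, 1464, 1487 or 1500 or WT 1432 or 1484. Other causes of these changes were not tested. Vh558 lists of as few as 9 clonotypes limit what a share can show there.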
